A study of Mus musculus with 3 samples.

Results

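miR-21 is a microRNA (miRNA) made in mouse from the Mir21a hairpin, and the 2 mature strands of that hairpin, miR-21a-5p and miR-21a-3p, are described here in 3 small-RNA libraries. They were found by name among the 1915 mature miRNAs that each library lists. The libraries came from exosomes of B16 cells, exosomes of JB6 cells, and B16 cells themselves, 1 library each. B16 is a mouse melanoma line, labelled strain C57BL/6J and tissue skin. JB6 is a mouse line labelled normal, strain BALB/c and tissue skin, so line, strain and disease state cannot be told apart between the exosome libraries. JB6 cells themselves were not analysed here. Exosomes are small vesicles shed into culture medium, collected here by ultracentrifugation. Because each group is 1 library, no difference below has a replicate check, and every interval is an exact (Clopper-Pearson or conditional binomial) 95% interval that covers counting error only.

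A miRNA hairpin is cut into a short duplex, and usually the strand kept in an Argonaute protein (the guide) outlives its partner (the passenger), which is degraded. For miR-21 the guide is the 5p strand. miR-21 is raised in many tumours, is switched on by the transcription factors AP-1 and STAT3, and lowers proteins that restrain growth and invasion. Pdcd4, a translation inhibitor and a known miR-21 target, was studied in JB6 cells as a block to transformation. No mRNA or protein was measured here, so the targets serve as background only.

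The sequences of both strands and of their closest named relatives are shown because the results turn on telling the strands apart. They are RefSeq sequences on build GRCm38.p6, 5′ to 3′, with the seed (bases 2 to 8, which pair with targets) in capitals.
miR-21a-5p: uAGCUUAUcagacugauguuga
miR-21a-3p: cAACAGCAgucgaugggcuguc
miR-21b: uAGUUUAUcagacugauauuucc
miR-21c: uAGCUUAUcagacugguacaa
The Mir21a hairpin of 92 bases lies on the minus strand of chromosome 11, 86584067 to 86584158, inside the 3′ UTR (86583865 to 86585310) of Vmp1, a gene of autophagy, in the GENCODE M21 annotation of GRCm38. Both arms are 22 bases long, with 16 bases between them, and a predicted fold (RNAfold, minimum free energy -46.2 kcal/mol) pairs them over 19 base pairs. The 5p arm starts with U and the 3p arm with C. Of 1915 entries, 1623 matched a RefSeq mature name, and among the matched RefSeq sequences only miR-21c had the seed AGCUUAU of miR-21a-5p, while no other had the seed AACAGCA of miR-21a-3p. Counted from the 5′ end of miR-21a-5p, miR-21b differs at C4U, G18A, G21U and A22C, and miR-21c at A16G, G18A, U19C, U20A and G21A. miR-21b, from chromosome 3, and miR-21c, from chromosome 8, were listed at 0 in all 3 libraries, so adding them changed no value of miR-21a.

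What the 5p seed recognises is seen in the 3′ UTRs of known targets. The letters ATAAGCTA, the complement of the seed followed by A, were searched on the sense strand of the longest annotated 3′ UTR of each gene. Of 20998 such UTRs of 8 bases or more, 442 held it (2.105%). Of 5 targets known from the literature, Pdcd4, Reck and Timp3 (inhibitors of matrix metalloproteinases), and Spry1 (a brake on Ras-ERK signalling) held 1 match each, shown in capitals, and Btg2 held none.
Pdcd4, chromosome 19, UTR bases 289 to 296: tgggtgttctgATAAGCTActttctaagtg
Reck, chromosome 4, UTR bases 1042 to 1049: tacagtttgaaATAAGCTAttaatgtaata
Timp3, chromosome 10, UTR bases 2325 to 2332: ttgagctttcaATAAGCTAtagctttgttt
Spry1, chromosome 3, UTR bases 322 to 329: taagtgcttaaATAAGCTAtatattaatct
The 4 stretches share the 8 letters and little around them. A match describes the sequence and does not show that the site was used in these cells.

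miR-21a-5p was among the leading miRNAs of both B16 libraries and lower in rank in JB6 exosomes. It had 1666 of 45677 miRNA reads in B16 exosomes, 40274 of 4495956 in JB6 exosomes and 465294 of 7925726 in B16 cells. That is 3.65% of the miRNA reads of B16 exosomes (3.48 to 3.82), 0.896% of JB6 exosomes (0.887 to 0.905) and 5.87% of B16 cells (5.85 to 5.89). By this measure the level was highest in B16 cells and lowest in JB6 exosomes, and none of the 3 intervals overlapped. The authors' own normalized value, an abundance in RPM (reads scaled to a larger total), was 1965 in B16 exosomes, 7157 in JB6 exosomes and 53351 in B16 cells. On that scale the exosome libraries change places. Listed miRNA reads make up 5.39% of the authors' total in B16 exosomes, 79.9% in JB6 exosomes and 90.9% in B16 cells, and the sources used here do not say what the remainder counts.

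**Figure D1:**
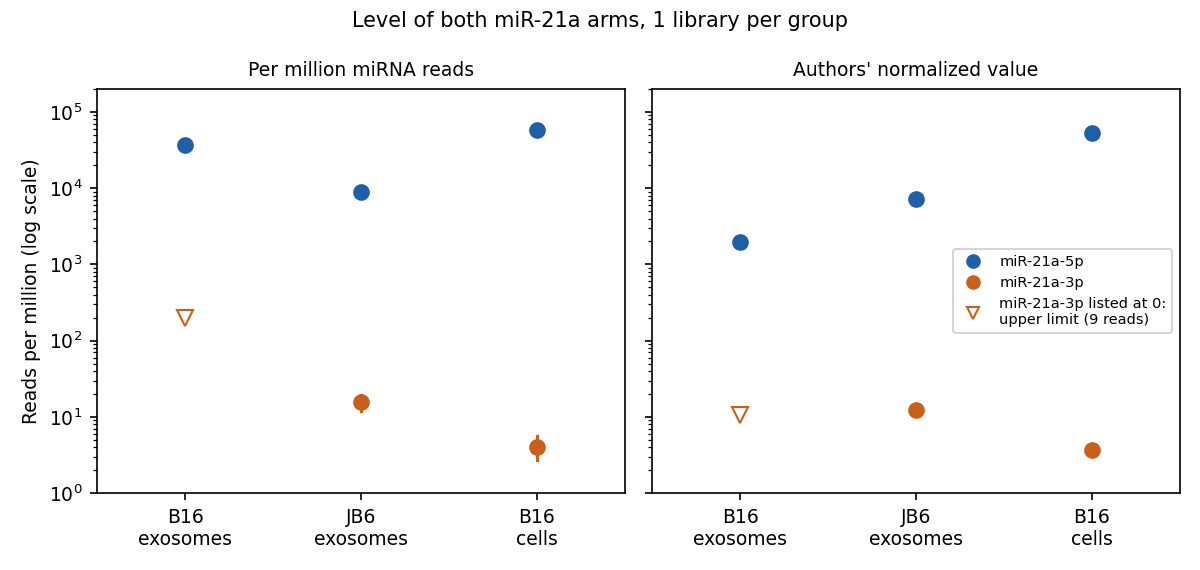
Level in RPM (log axis) of miR-21a-5p (blue) and miR-21a-3p (orange) in the 3 libraries, relative to miRNA reads with 95% counting intervals (left) and as the authors' normalized value (right); open triangles are the limit set by 9 reads where miR-21a-3p is listed at 0. miR-21a-5p is above the 3p arm in every library, and B16 exosomes lie above JB6 exosomes on the left and below them on the right.

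Ranks within a library do not depend on scaling. miR-21a-5p was rank 7 of 149 listed miRNAs in B16 exosomes, rank 20 of 389 in JB6 exosomes and rank 4 of 559 in B16 cells. In B16 exosomes it stood between miR-10b-5p (1756 reads) and miR-30d-5p (1475 reads), and only miR-10b-5p among the 3 neighbours on either side could not be told from it by counting error (ratio of miR-21a-5p to it 0.949, 0.887 to 1.02). In JB6 exosomes it stood between let-7i-5p (40626 reads, ratio 0.991, 0.978 to 1.01), which could not be told from it, and let-7c-5p (34543 reads). In B16 cells it stood between let-7f-5p (471792 reads, ratio 0.986, 0.982 to 0.9902) and let-7g-5p (435285 reads, ratio 1.07, 1.06 to 1.07), at a depth where both differed from it. The same let-7 and miR-30 entries surround it in both B16 libraries, where let-7c-5p, let-7g-5p, miR-30a-5p and miR-30d-5p are among the 6 nearest.

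The 3p strand was scarce wherever it was seen. miR-21a-3p was listed at 0 in B16 exosomes, and had 70 reads in JB6 exosomes and 32 in B16 cells. No file lists a count from 1 to 9, so the listed 0 stands for at most 9 reads, or 197 RPM of miRNA reads in B16 exosomes. In JB6 exosomes the level was 15.6 RPM of miRNA reads (12.1 to 19.7) and in B16 cells 4.04 RPM (2.76 to 5.70), so these intervals do not overlap and the order is the reverse of that of the 5p strand. It ranked 217 of 389 in JB6 exosomes, at the same 70 reads as miR-183-5p and miR-542-3p, between miR-872-5p (71 reads) and miR-1934-5p (69 reads). In B16 cells it ranked 410 of 559, level with miR-370-3p, miR-193b-3p and miR-3102-5p.2-5p at 32 reads. None of the nearest entries could be told from it by counting error in either library.

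**Figure D2:**
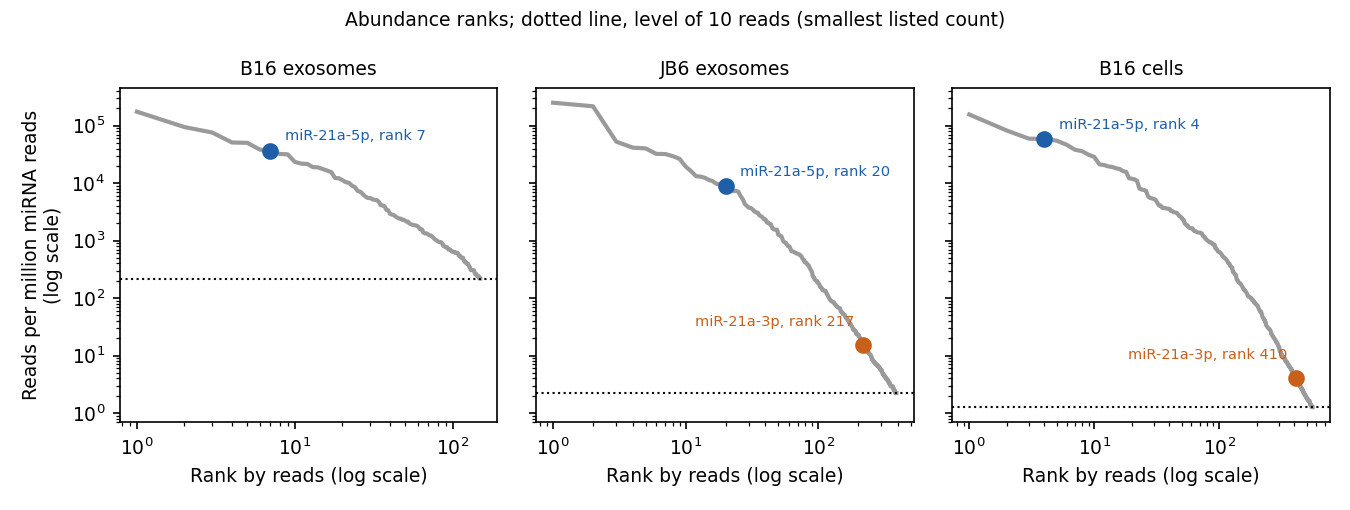
Level of each listed miRNA against its rank in the library (both axes log), with miR-21a-5p in blue and miR-21a-3p in orange; the dotted line is the level of 10 reads, the smallest listed count. miR-21a-5p sits at ranks 7, 20 and 4, while miR-21a-3p sits at ranks 217 and 410 in the deep libraries and below the dotted line in B16 exosomes.

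The balance of the arms, 5p reads over 3p reads of the same hairpin in the same library, needs no scaling. It was 575 in JB6 exosomes (455 to 738) and 14540.4 in B16 cells (10299.8 to 21258). In B16 exosomes the 1666 reads of the 5p strand against at most 9 of the 3p strand put it at 185 or more. The counting interval at 9 reads is 97.3 to 406. The 3p strand thus held 0.174% of the hairpin's reads in JB6 exosomes (0.135 to 0.219) and 0.00688% in B16 cells (0.00470 to 0.00971). With the balance of JB6 exosomes the B16 exosome library would hold 2.90 reads of miR-21a-3p, and with that of B16 cells 0.115 reads. Both are under the 10 reads needed for a listing, so which of the balances B16 exosomes have was not detectable at this depth.

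In B16 cells no hairpin paired by name leaned further to its 5p arm. Here and below, a hairpin counts only where the names of its 2 arms match up to the suffix. This leaves out let-7f-5p (471792 reads in B16 cells), let-7c-5p (370365), let-7a-5p (151598) and miR-26a-5p (128304). Their partners carry a locus number, such as let-7f-1-3p. Of 749 hairpins paired in this way, 158 had 100 or more reads in B16 cells. Both arms were listed for 124 of these, and miR-21a had the highest ratio of 5p to 3p reads. The median over the 68 of them with more 5p than 3p reads was 26.9. The next hairpins were miR-99a at 10243 (6308 to 17921), let-7g at 8061 (6178 to 10730.3) and let-7i at 6725 (5823 to 7810). The intervals of miR-99a and let-7g overlap that of miR-21a, so the first places cannot be told apart by counting, and 16 hairpins with a 3p arm listed at 0 have only a lower limit. The 9 paired hairpins with 100000 or more reads in B16 cells and more reads on the 5p arm included miR-21a. The ratios of the other 8 ranged from 10.6 for miR-30a to that of miR-99a, with a median of 240.1. The 3p strand of miR-30d, whose 5p strand is more frequent than miR-21a-5p, had 2043 reads and that of miR-10b had 1588, against 32 for miR-21a-3p.

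In JB6 exosomes the same hairpin was no longer at the top. It was the 13th of 132 hairpins by the ratio and the 6th of the 71 with both arms listed, where the median of the 35 with more 5p reads was 10.9. Its neighbours above were miR-10a at 1094 (907 to 1332), and miR-1981 and miR-192, whose 3p arms were listed at 0, and just below it came miR-532 at 431 (305 to 630). In B16 exosomes 7 of 36 hairpins had both arms listed. There miR-21a was the third by its lower limit, after let-7i (890.4 or more) and miR-10b (195 or more), an order set by the 5p counts alone, since the 3p arm of each is listed at 0.

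**Figure D3:**
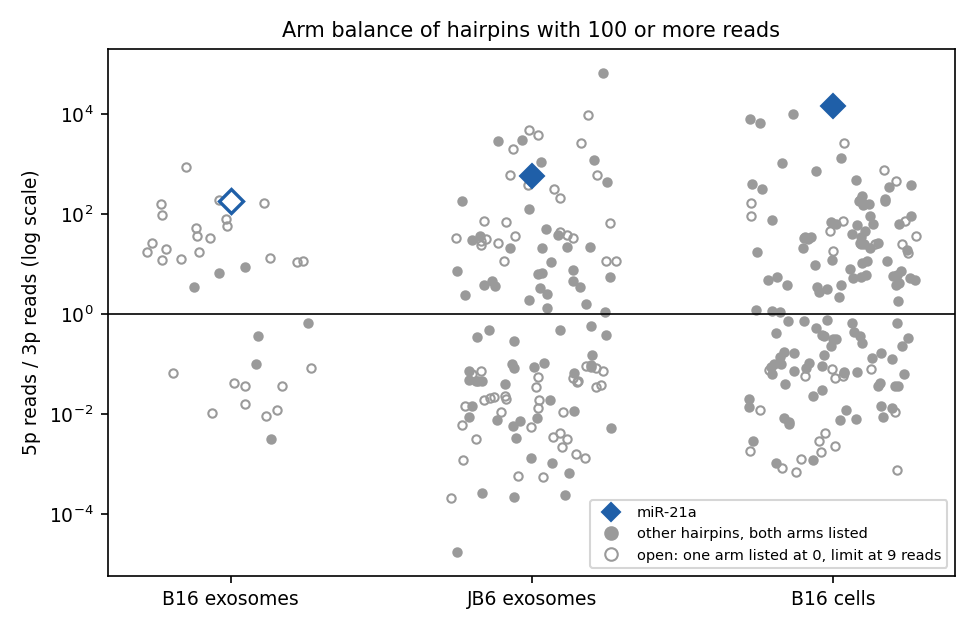
Ratio of 5p to 3p reads (log axis) of hairpins paired by name with 100 or more reads in each library. miR-21a is a blue diamond (bar, 95% counting interval) and other hairpins are grey. Open symbols have 1 arm listed at 0 and are limits at 9 reads. miR-21a is the highest point in B16 cells at 14540.4, is at 575 in JB6 exosomes among several higher hairpins, and has only a lower limit of 185 in B16 exosomes.

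Set against B16 cells, the balance in JB6 exosomes was 25.3-fold lower (16.4 to 39.7). Of the 63 hairpins with both arms listed in both of these libraries, 39 were lower (61.9%) and 17 higher (27%) by a rule of at least 2-fold with an interval that excludes 1, so a lower balance was the common case. The log2 ratio of balances was -4.66 for miR-21a, beside a median of -2.35 over the 63 hairpins, 8 of which were lower than miR-21a. Of the 34 hairpins with more 5p than 3p reads in B16 cells, 23 were lower and 7 higher, with a median log2 ratio of -2.53, and 4 were lower than miR-21a. Among other abundant 5p hairpins the directions differed. let-7i was at 2902 in JB6 exosomes and 6725 in B16 cells, and miR-9 at 2.42 in JB6 exosomes and 62.9 in B16 cells. In contrast, miR-10b was at 1228 in JB6 exosomes and 156 in B16 cells, and miR-10a at 1094 in JB6 exosomes and 161 in B16 cells. Hairpins whose passenger arm is listed at 0 in either library are left out of these counts, as for miR-99a, at 9738 or more in JB6 exosomes.

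**Figure D4:**
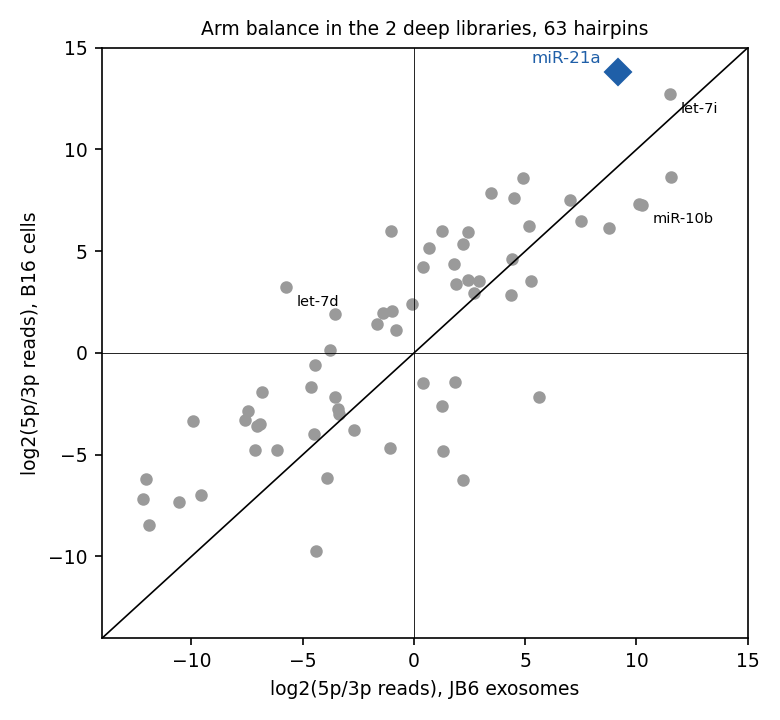
log2 ratio of 5p to 3p reads in JB6 exosomes (x axis) and B16 cells (y axis). Shown are the 63 hairpins paired by name with both arms listed in both libraries, and the diagonal marks equal balance. miR-21a (blue) is the highest point and lies above the diagonal, as do the other hairpins with a lower balance in JB6 exosomes, while miR-10b lies below it.

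B16 exosomes were set against B16 cells to ask how far vesicles follow the cells that shed them. The share of miR-21a-5p in B16 exosomes was 0.621 times that in B16 cells (0.592 to 0.652), short of the 2-fold rule. Of 422 miRNAs with 30 or more reads over this pair 36 were higher (8.53%) and 33 lower (7.82%). Another 267 were not resolved, because a listed 0 gives a limit only. Among the 144 listed in both libraries 34 had a lower ratio than miR-21a-5p and the median ratio was 1.02. Of the 10 most abundant miRNAs of B16 cells, 2 had a lower ratio than miR-21a-5p, and the 10 ranged from 0.392 for miR-30d-5p to 2.12 for miR-143-3p. The ratio of miR-21a-5p was past the rule and lower under trimmed-mean (TMM) scaling at 0.307, under DESeq2 size factors at 0.426 and under the authors' values at 0.0368, so it was below 1 under each of the 6 scalings tried and its size depended on them. For miR-21a-3p the listed 0, taken as 9 reads, gives a limit of 48.8 (counting interval 20.5 to 105), and no direction was resolved.

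B16 exosomes were set against JB6 exosomes as vesicles of a tumour line beside vesicles of a line labelled normal. The share of miR-21a-5p was 4.07-fold higher in B16 exosomes (3.87 to 4.28). That call was a common one, since 94 of 300 miRNAs were higher (31.3%), 35 lower (11.7%) and 146 not resolved. The median log2 ratio over the 131 listed in both was 2.62 beside 2.03 for miR-21a-5p. Of the 10 most abundant miRNAs of B16 cells 9 were higher in B16 exosomes, up to 48.8-fold for let-7g-5p, and miR-21a-5p was among the 3 lowest. The direction did not hold under every scaling. It was 1.52 with DESeq2 size factors, within 2-fold, and turned to 0.789 with TMM and 0.275 with the authors' values. Large shares of JB6 exosome reads went to miR-122-5p, a liver miRNA, with 25.1%, against 0.0525% in B16 exosomes, and to miR-148a-3p with 21.8%, against 0.215%. With the reads of both left out of the totals miR-21a-5p was 2.17-fold higher (2.06 to 2.28). For miR-21a-3p the limit in B16 exosomes is 12.7 times the level in JB6 exosomes (5.56 to 25.4), and 0.853 times it under the authors' values (0.375 to 1.71), and no direction was resolved.

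The deep libraries, JB6 exosomes and B16 cells, gave opposite directions for the arms. Cell line and vesicle fraction cannot be told apart in this comparison. miR-21a-5p was 6.55-fold lower in JB6 exosomes (6.49 to 6.62), while miR-21a-3p was 3.86-fold higher (2.504 to 6.06). Of 501 miRNAs with 30 or more reads, 304 were lower (60.7%) and 131 higher (26.1%), so lower was the more common call. Among the 305 listed in both libraries, 104 had a lower log2 ratio than the -2.71 of miR-21a-5p and 246 a lower one than the 1.95 of miR-21a-3p, beside a median of -1.47. The directions of both arms held under the 6 scalings. miR-21a-5p was 2.57-fold lower with TMM and 7.45-fold lower with the authors' values, the extremes, and miR-21a-3p 9.82-fold and 3.39-fold higher under the same scalings.

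**Figure D5:**
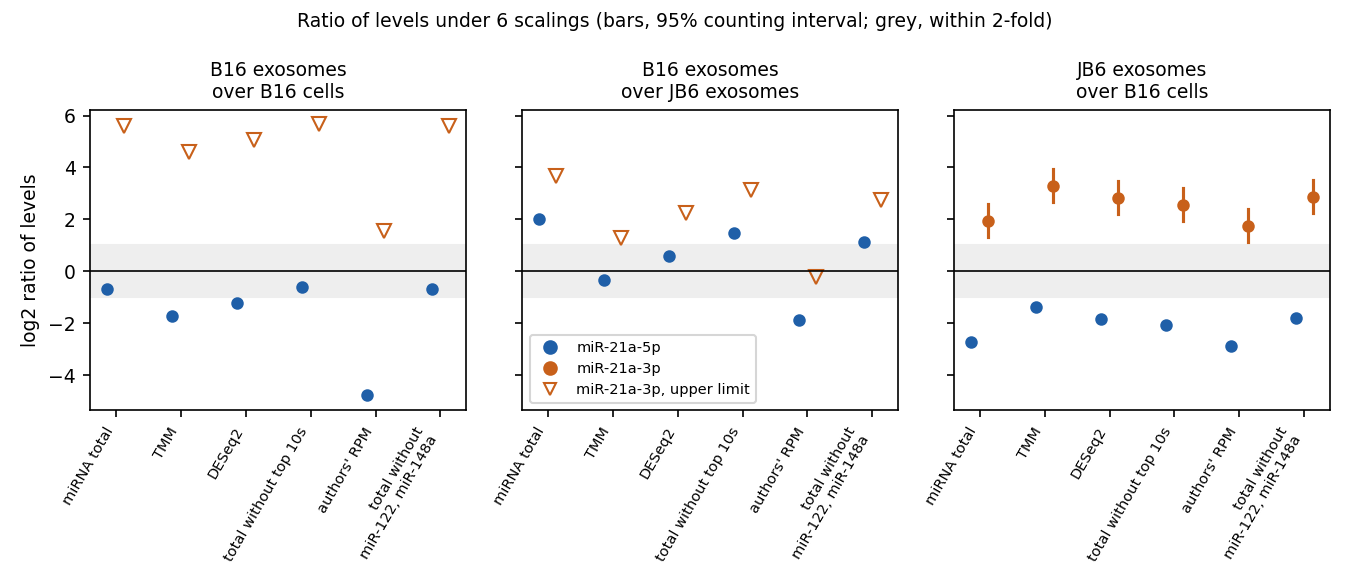
log2 ratio of the level of miR-21a-5p (blue) and miR-21a-3p (orange) in each comparison under 6 scalings, with 95% counting intervals as bars, open triangles as upper limits where miR-21a-3p is listed at 0, and a grey band within 2-fold. The 5p ratio changes sign between scalings only in B16 exosomes over JB6 exosomes, and in JB6 exosomes over B16 cells the arms stay on opposite sides of 0.

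The miRNAs whose pattern over the 3 libraries was most like that of miR-21a-5p were sought among 106 others listed in all 3 libraries with 100 or more reads in both deep ones. Likeness was the Euclidean distance between their log2 ratios to B16 cells in the exosome libraries, with 3 libraries behind each point. The nearest was let-7a-5p at a distance of 0.195 log2 units, with 1.22% of reads in B16 exosomes, 0.256% in JB6 exosomes and 1.91% in B16 cells. miR-5099 (0.431), miR-149-5p (0.527), miR-185-5p (0.531), miR-423-3p (0.637) and miR-29a-3p (0.678) followed, beside a median distance of 2.24. Among these followers miR-185-5p had only 23 reads in B16 exosomes, miR-149-5p 56 and miR-423-3p 81. The distances carry no counting interval, so the order of the followers was not tested. They ranged from 0.0504% of B16 exosome reads for miR-185-5p to that of let-7a-5p, so all were less frequent than miR-21a-5p.

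miR-21 was also placed beside 25 other miRNAs that are raised in tumours, such as the miR-17-92 cluster, which drives proliferation, and miR-31-5p. Their summed share was 8.97% in B16 exosomes, 13.2% in JB6 exosomes and 10.3% in B16 cells. In B16 cells miR-21a-5p was more frequent than any of them, and miR-10b-5p came next with 3.13%. In B16 exosomes miR-10b-5p stood just above it. In JB6 exosomes miR-92a-3p (237054 reads), miR-10b-5p (186628), miR-146b-5p (72533) and miR-25-3p (48780) were above it. Between JB6 exosomes and B16 cells 17 of 24 members with enough reads were lower and 5 higher, beside 60.7% lower and 26.1% higher over all 501 miRNAs. Under TMM 12 of the 24 were lower and 7 higher, beside 202 lower and 165 higher of the 501. The median log2 ratio of the 22 listed in both was -3.66, against -1.47 over all 305, and both medians stayed negative under the 6 scalings. miR-31-5p had 84 reads in B16 exosomes (0.184%), 45 in JB6 exosomes (0.00100%) and 32353 in B16 cells (0.408%). It was 408-fold lower in JB6 exosomes than in B16 cells. Between the exosome libraries 10 of 22 were higher and 3 lower in B16 exosomes, beside 31.3% higher and 11.7% lower over all 300 miRNAs. Of the 22, 4 were not resolved, against 146 of the 300, so these shares have unlike bases. The counts were 9 higher and 9 lower under TMM, whereas the authors' values gave 4 higher and 10 lower. Over all 300, TMM gave 61 higher and 97 lower, and the authors' values 40 higher and 153 lower. The median log2 ratio of the 18 listed in both was 3.09, against 2.62 over all 131, and turned to -0.80 under the authors' values, against -1.27. Between B16 exosomes and B16 cells 4 of 23 were higher and 3 lower, beside 8.53% higher and 7.82% lower over all 422 miRNAs. Of the 23, 5 were not resolved, against 267 of the 422, so these shares also have unlike bases. The median log2 ratio was -0.26 over 18, against 0.03 over all 144. There, 0 were higher and 11 lower under TMM, whereas the authors' values gave 0 higher and 22 lower. Over all 422, TMM gave 16 higher and 93 lower, and the authors' values 9 higher and 257 lower.

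A list of 26 miRNAs that restrain growth, such as let-7, miR-34a-5p and miR-143-3p, was read the same way. Its summed share was 49.2% in B16 exosomes, 7.33% in JB6 exosomes and 42.0% in B16 cells. Between JB6 exosomes and B16 cells 21 of 25 with enough reads were lower and 1 higher, beside the same 60.7% and 26.1% over all miRNAs. Under TMM 14 of the 25 were lower and 3 higher, beside 202 lower and 165 higher of all 501. The median log2 ratio was -2.90 over the 19 listed in both, against -1.47 over all 305, and both medians stayed negative under the 6 scalings. Between the exosome libraries 15 of 17 were higher and 1 lower in B16 exosomes, beside 31.3% higher and 11.7% lower over all miRNAs. Of the 17, 0 were not resolved, against 146 of all 300, so these shares have unlike bases. The counts were 7 higher and 4 lower under TMM, whereas the authors' values gave 6 higher and 9 lower. Over all 300, the same scalings gave 61 higher and 97 lower, and 40 higher and 153 lower. The median was 2.97 over 16, against 2.62 over all 131, and turned to -0.92 under the authors' values, against -1.27. Between B16 exosomes and B16 cells 4 of 24 were higher and 2 lower, beside 8.53% and 7.82% over all miRNAs. Of the 24, 7 were not resolved, against 267 of all 422. The counts were 0 higher and 8 lower under TMM, whereas the authors' values gave 0 higher and 19 lower. Over all 422, the same scalings gave 16 higher and 93 lower, and 9 higher and 257 lower. The median was 0.16 over 17, against 0.03 over all 144. It turned to -0.86 under TMM, -0.39 under DESeq2 factors and -3.92 under the authors' values. The medians over all 144 at these scalings were -0.99, -0.52 and -4.05. Of 3 other miRNAs switched on by AP-1, all also in the list of tumour-raised miRNAs, miR-221-3p and miR-222-3p, which promote proliferation, were higher in JB6 exosomes than in B16 cells, where miR-21a-5p was lower. miR-221-3p had 42 reads in B16 exosomes (0.092%), 3614 in JB6 exosomes (0.0804%) and 2679 in B16 cells (0.0338%). It was 2.38-fold higher in JB6 exosomes than in B16 cells (2.26 to 2.501). miR-222-3p had 11 reads in B16 exosomes, 3148 in JB6 exosomes and 577 in B16 cells, and was 9.62-fold higher in JB6 exosomes than in B16 cells (8.798 to 10.5). miR-155-5p, which acts in lymphocytes and macrophages, was listed at 0 in B16 exosomes, with 88 reads in JB6 exosomes and 375 in B16 cells. It was 2.42-fold lower in JB6 exosomes than in B16 cells (0.414 times the share there), and lay within 2-fold under 4 of the 5 other scalings, all but the authors' values.

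miR-21 is made in many cell types, so markers of other cells were read beside it. The 6 melanocyte-lineage miRNAs held 0.420% of reads in B16 exosomes, 21.8% in JB6 exosomes and 0.291% in B16 cells, with 3 of them listed in B16 exosomes, 4 in JB6 exosomes and 5 in B16 cells. The high sum in JB6 exosomes is nearly all miR-148a-3p, which is also abundant in other tissues, with 98 reads in B16 exosomes, 979782 in JB6 exosomes and 819 in B16 cells. By share miR-148a-3p was also 20.8-fold higher in B16 exosomes (0.215%) than in B16 cells (0.0103%), though it did not meet the rule under the authors' values. The other members were not high in JB6 exosomes. miR-211-5p, made from an intron of the melanocyte gene Trpm1, had 83 reads in B16 exosomes (0.182%), a listed 0 in JB6 exosomes and 21080 reads in B16 cells (0.266%). miR-182-5p had 11 reads in B16 exosomes (0.0241%), 28 in JB6 exosomes (0.000623%) and 655 in B16 cells (0.00826%). miR-183-5p and miR-204-5p were listed at 0 in B16 exosomes, with 70 and 14 reads in JB6 exosomes and 447 and 60 in B16 cells, and miR-137-3p was at 0 in all 3. The 3 liver miRNAs held 0.0963% of reads in B16 exosomes, 25.2% in JB6 exosomes and 0.0686% in B16 cells. In JB6 exosomes nearly all of this was miR-122-5p, with 1129522 reads. By share miR-122-5p was also 9.89-fold higher in B16 exosomes (24 reads, 0.0525%) than in B16 cells (421 reads, 0.00531%). It was not higher by the rule under the authors' values. Of the other members, miR-192-5p was 2.34-fold higher in JB6 exosomes than in B16 cells and miR-194-5p 3.89-fold lower. The 3 red-cell miRNAs, led by miR-486a-5p, were listed at 0 in B16 exosomes and held 0.748% in JB6 exosomes and 0.00209% in B16 cells. The 3 striated-muscle miRNAs, led by miR-206-3p, were at 0 in B16 exosomes, 0.371% in JB6 exosomes and 0.000139% in B16 cells. Of 4 leukocyte miRNAs, 0 were listed in B16 exosomes, 3 in JB6 exosomes and 1 in B16 cells, with at most 35 reads each, and miR-223-3p was at 0 in all 3. Of 7 epithelial and keratinocyte miRNAs, 0 were listed in B16 exosomes, 2 in JB6 exosomes and 4 in B16 cells. In B16 exosomes a listed 0 stands for a share of at most 0.0197%. The leukocyte list summed to 0.00153% in JB6 exosomes and 0.000126% in B16 cells, and the epithelial list to 0.000778% and 0.00249%. All lie under that limit, so these listings of 0 cannot tell B16 exosomes from the other libraries. The same holds for miR-183-5p and miR-204-5p, and against B16 cells for the red-cell and striated-muscle lists. In JB6 exosomes, from a line labelled skin, miR-205-5p was at 0 and miR-203-3p had 13 reads. The 5 fibroblast and smooth-muscle miRNAs, led by miR-143-3p, held 8.06% in B16 exosomes, 3.46% in JB6 exosomes and 3.83% in B16 cells. Between JB6 exosomes and B16 cells 2 of the 5 were higher, 2 were within 2-fold and 1 was lower. The lower one was miR-145a-5p, with 51 reads in JB6 exosomes and 6822 in B16 cells. Over all 501 miRNAs 26.1% were higher and 60.7% lower. Which cells these miRNAs came from was not tested. How far their levels bear on the level or the balance of miR-21a in JB6 exosomes was not tested either.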

How the data were processed

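Small RNA of 3 libraries was extracted with Trizol, per the labels' protocols, and bcl2fastq, BWA and mm10 are named, per the submitters' processing notes. Read counts per mature miRNA were deposited as totals, per the file headers, and are whole numbers. The deposited normalized value in RPM is, within each file, the count divided by 1 total, to within rounding. The total behind it is 847694 in B16 exosomes, 5626936 in JB6 exosomes and 8721363 in B16 cells. Versions, miRNA release, strand and treatment of multiply matching reads are not stated in these sources. Some entries have equal counts, such as miR-199a-3p and miR-199b-3p (72 reads in B16 exosomes and 9276 in JB6 exosomes). So do miR-486a-5p and miR-486b-5p (32994 in JB6 exosomes). Reads that match several entries may thus be counted in each, and the summed totals may hold some reads more than once.

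Levels are shares of the summed miRNA counts (45677, 4495956 and 7925726 reads in the same order). Ratios of shares and of arm balances have exact 95% intervals (scipy 1.17.1), and a call needed 30 reads summed over both libraries, a 2-fold difference and an interval that excludes 1. A listed 0 was taken as 9 reads, which gives a limit only. Intervals cover counting error only, because each group is 1 library. PCR copies of a molecule are counted as separate reads, so the intervals may be too narrow even for counting error. Alternatives used TMM factors (edgeR 4.0.16) and DESeq2 1.42.0 size factors, other totals, minimums and a stricter rule. The scripts were tested on simulated data. The members, the lists (10 in all) and the naming rule (rank neighbours, nearest patterns, neighbours in arm balance, list members) were chosen with earlier results of these data known. Other hairpins and miRNAs named, and the target genes, were chosen after values were seen.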

Additional observations from a re-analysis of the deposited data

How the results depend on the processing

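No paired analysis was possible because each group holds 1 library. Of the 110 recomputed values, 67 kept their direction and side of the rule (or stayed within 1.5 times, for counts). Another 20 are limits for miR-21a-3p or the arm balance in B16 exosomes, which resolve no direction under any setting run and can lie on either side of 1. Some of these outcomes were fixed in advance and say nothing on how firm a value is. Summing the entries that share a seed adds only miR-21c, which is listed at 0 in every library. Only the 1623 of 1915 entries that matched a RefSeq name could be searched for a shared seed. Setting a listed 0 to 1 read cannot alter values of miR-21a that involve the deep libraries alone. For miR-21a-5p in B16 exosomes over B16 cells, the ratio passed the rule as lower under TMM (0.307), DESeq2 size factors (0.426) and the authors' values (0.0368). In B16 exosomes over JB6 exosomes it fell short of the rule with DESeq2 (1.52) and reversed with TMM (0.789) and the authors' values (0.275). Every ratio of a comparison shifts by the same amount with a scaling, up to -4.08 on the log2 scale for the authors' values. The limit of the arm ratio in B16 exosomes was 1666 with 1 read in place of 9. miRNAs higher in B16 exosomes than in B16 cells numbered 36, against 16 with TMM, 21 with DESeq2, 9 with the authors' values and 23 where the whole interval had to lie beyond 2-fold. Those lower numbered 33, against 93, 62, 257 and 14. In B16 exosomes over JB6 exosomes, TMM and the authors' values gave 61 and 40 higher, and TMM, DESeq2 and the authors' values gave 97, 62 and 153 lower. In JB6 exosomes over B16 cells TMM gave 202 lower. With 1000 or more reads per hairpin in both deep libraries, a setting chosen after seeing the data, 21 hairpins had a lower and 9 a higher balance. The totals without miR-122-5p and miR-148a-3p were also chosen after seeing the data. The 32 and 70 reads of miR-21a-3p limit the precision of its balance, and at the depth of the B16 exosome library neither value could be listed.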
